A study of Gallus gallus with 21 samples.

Results

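The dermal papilla of the feather follicle was compared with the dermal sheath that surrounds it, gene by gene. Members of the comparison were all genes with at least 1 TPM (a gene's length-corrected share of a library's transcripts) in at least 3 of the 6 papilla and sheath libraries, which kept 13030 of the 13815 genes in the authors' table. Both groups had 3 RNA-seq libraries and came from contour feather follicles in early growth, taken from untreated male white leghorn chickens aged 1 year. All 4 groups of the same table, which also holds 3 libraries each of peripheral and central pulp, shared that breed, sex, age and stage, and the whole series has 21 libraries. The labels do not say how the tissues were separated, whether animals were pooled or whether replicates came from separate birds, so the p-values speak only for the variation among these libraries, which may be technical.

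The dermal papilla is a condensed knot of mesenchyme at the base of the follicle. It instructs the overlying epidermis to grow a feather and persists from one cycle to the next, and in hair and feather it is known for secreted regulators of the Wnt, BMP and FGF pathways. The dermal sheath is the connective tissue wall that encloses the epidermal part of the follicle, and smooth muscle bundles that move the feather attach to it. In bulk tissue, fewer cells of a type and less RNA per cell cannot be told apart, which holds for every group of genes described here.

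Papilla and sheath differed in 5207 genes at an adjusted p under 0.05 by limma, with 3002 genes higher and 2205 lower in papilla. These calls were 40.0% of all genes tested, 23.0% higher and 16.9% lower, and each list of genes below is to be read against those shares. Most of the calls, 3533 genes, were under 2-fold. At least 2-fold higher were 782 genes (6.00% of those tested) and at least 2-fold lower were 892 (6.85%), and past 4-fold the numbers were 182 higher and 323 lower. The 3 papilla libraries did not overlap the 3 sheath libraries in 55.2% of genes, with papilla above sheath in 32.1% and below it in 23.1%. The median log2 fold change of all genes tested was 0.06, and the median standard error of a log2 fold change was 0.15. Among genes with more than 1000 TPM on average in the higher group, 76.5% were called, against 30.6% of genes under 10 TPM.

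**Figure D1:**
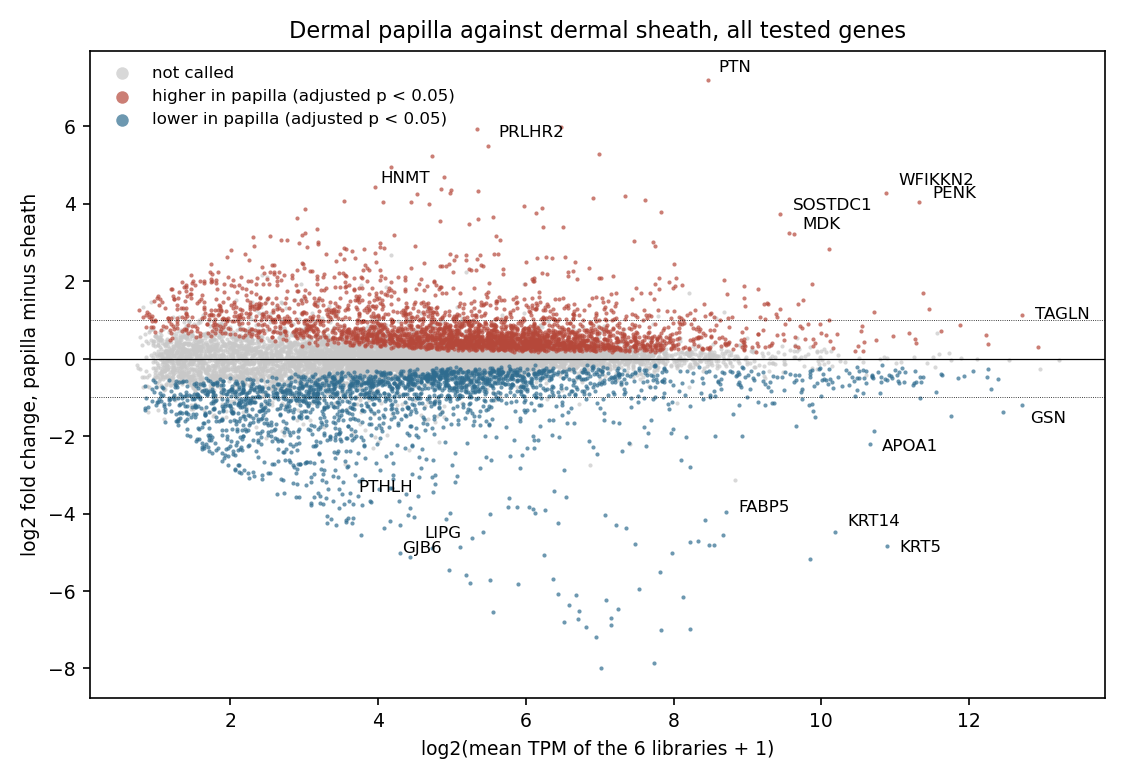
Log2 fold change of papilla minus sheath (y axis) against log2 of the mean TPM + 1 of the 6 libraries (x axis) for all 13030 genes tested, with called genes in colour and dotted lines at 2-fold. PTN lies highest, the keratin genes KRT5 and KRT14 lie far below 0 at high expression, and TAGLN and GSN are the most abundant of the genes marked.

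Between 12569 and 12856 genes reached 1 TPM in each of the 6 libraries, and sequencing depth is unknown because TPM keeps none. Log2 values of libraries of 1 group correlated with Pearson r between 0.972 and 0.981, and those of papilla with sheath libraries between 0.874 and 0.905, each across genes. Ribosomal protein genes took 7.48% to 8.34% of all TPM in papilla libraries and 10.67% to 11.48% in sheath libraries.

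Both tissues carried the defining transcripts of dermal mesenchyme. PDGFRA, a receptor of fibroblasts, had 140.1, 149 and 149 TPM in papilla, against 139, 161 and 159.9 TPM in sheath, and the libraries of both groups overlapped (log2 fold change -0.07 ± 0.14, adjusted p = 0.737, where ± gives the standard error from limma here and below). The fibrillar collagen gene COL1A1 also overlapped, with 2741, 1939.5 and 2835 TPM in papilla, against 2610.0, 2162 and 2389 TPM in sheath (adjusted p = 0.848). TWIST2, a transcription factor of dermal fibroblasts, was higher in papilla, with 332, 337 and 330.2 TPM in papilla, against 157, 176 and 192 TPM in sheath (log2 fold change 0.93 ± 0.09, adjusted p = 2.23e-05). The markers of other cell types were not equal between the groups, and they are given first because they move with many of the results.

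Transcripts of the epidermis were far lower in papilla. Of 25 basal keratinocyte genes tested, 22 were lower and 1 was higher in papilla, with a median log2 fold change of -3.53. The list summed to 859.8, 600.1 and 638 TPM in the papilla libraries and to 11151, 7567 and 9430.2 TPM in the sheath libraries. KRT5, a keratin of basal epidermal cells, had 189.6, 103 and 102 TPM in the papilla libraries, against 4148, 2931 and 3874 TPM in the sheath libraries, and TP63, the master transcription factor of stratified epithelia, had 4.45, 1.53 and 1.44 TPM in papilla, against 34.97, 25.95 and 34.7 TPM in sheath. All 8 defining keratinocyte markers were above 0 in every library of both groups, and none of their papilla values reached a sheath value. The exception in the list was LAMA3, a laminin chain of basement membranes, with 56.9, 59.01 and 52.5 TPM in papilla, against 28.9, 26.3 and 32.3 TPM in sheath (log2 fold change 0.93 ± 0.23, adjusted p = 0.00749). Of 12 cornification genes, 9 were lower and 0 higher (median -1.97).

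Blood and immune transcripts were lower in papilla as well. Of 10 erythroid genes, 8 were lower and 1 was higher (median -1.71), and the list summed to 1167 to 1428 TPM in papilla against 4149.97 to 4808 TPM in sheath. The haemoglobin chain HBA1 had 623, 768 and 785 TPM in the papilla libraries, against 2678, 2735 and 2439 TPM in the sheath libraries. The gene that went the other way was ALAS2, the first enzyme of erythroid haem synthesis, with 98.4, 94.9 and 97.4 TPM in papilla, against 67.9, 76.3 and 75.2 TPM in sheath (log2 fold change 0.40 ± 0.11, adjusted p = 0.01), which was not called with quantile normalization (adjusted p = 0.0818). Of 18 leukocyte genes, 15 were lower and 0 higher (median -0.85), with sums of 641 to 653 TPM in papilla and 1089.9 to 1253 TPM in sheath. Another entry was taken out of this list before counting and summing, and its result is not reported here. CTSS, a lysosomal protease of antigen-presenting cells, had 50.8, 45.9 and 41.9 TPM in papilla, against 104, 91.5 and 84.6 TPM in sheath, and CD83, a marker of mature dendritic cells, had 5.604, 7.67 and 7.41 TPM in papilla, against 20.9, 17.4 and 18.9 TPM in sheath, without overlap in either. The part that these cell types have in other results was not tested.

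Vessel genes divided. VWF (von Willebrand factor), a clotting protein made by endothelium, was lower in papilla with 88.8, 109 and 103 TPM in papilla, against 226, 235 and 259 TPM in sheath (log2 fold change -1.25 ± 0.19, adjusted p = 0.000356), while SOX18, an endothelial transcription factor, was higher with 397, 339 and 375 TPM in papilla, against 177, 169 and 185 TPM in sheath (log2 fold change 1.06 ± 0.16, adjusted p = 0.000359). In the blood endothelial list 2 of 12 genes were higher and 4 lower. The pan-endothelial cadherin CDH5 had 155, 174 and 159 TPM in papilla, against 171, 179 and 206 TPM in sheath and was not called (adjusted p = 0.375). LYVE1, the hyaluronan receptor of lymphatic vessels, had 112, 150.2 and 163 TPM in the papilla libraries, against 316, 318 and 403 TPM in the sheath libraries (log2 fold change -1.29 ± 0.22, adjusted p = 0.000821). Of 6 lymphatic genes 4 were lower, or 2 without papilla replicate 1. MMRN1 was among the lower ones (adjusted p = 0.0224), though not with a pseudocount of 0.1 (0.319). The lymphatic marker PROX1 was not called (adjusted p = 0.0902). FLT4 overlapped, with 49.7, 53.3 and 55.2 TPM in papilla, against 56.9, 51.4 and 56.0 TPM in sheath. The pericyte marker RGS5, a regulator of G-protein signalling in mural cells, was higher with 2703, 3008 and 2886 TPM in papilla, against 1819, 1912 and 1719.7 TPM in sheath (log2 fold change 0.66 ± 0.15, adjusted p = 0.00547), and 2 of 6 pericyte genes were called, both higher.

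Pigment markers were low, while the Schwann and nerve list summed to 415 to 454 TPM in papilla and 460 to 512 TPM in sheath. SOX10, the transcription factor of glia and melanocytes, had 24.8, 24.9 and 29.8 TPM in papilla, against 19.8, 24.98 and 19.8 TPM in sheath and was not called (adjusted p = 0.317). The axonal neurofilament gene NEFL had 1.33, 1.37 and 1.46 TPM in papilla, against 7.65, 9.805 and 6.49 TPM in sheath (log2 fold change -1.90 ± 0.30, adjusted p = 0.000426), and STMN2, a microtubule regulator of neurons, was listed at 0 in the 3 papilla libraries and at 9.06, 7.83 and 5.82 TPM in the sheath libraries. Of 13 Schwann and nerve genes, 4 were lower and 1 higher, and the number lower was 1 without sheath replicate 1 and 2 without sheath replicate 2 or with a pseudocount of 0.1, where NEFL was not called (adjusted p = 0.0606). The higher gene was PRPH, with 12.3, 15.8 and 11.5 TPM in papilla, against 2.40, 7.03 and 6.54 TPM in sheath (log2 fold change 1.25 ± 0.27, adjusted p = 0.00371). The melanosome gene MLANA was listed at 0 in all 6 libraries. TYR was at 0 in all papilla libraries and at 0.0638, 0 and 0 TPM in sheath. TYRP1, another enzyme of melanin synthesis, had 2.88, 1.68 and 1.52 TPM in papilla and was listed at 0 in sheath. TYRP1 passed the filter through the papilla libraries alone, as did PMEL, which was not called. Both could come out only higher, so their direction is not a result. TYRP1 was 1 of 2 genes called among the 6 melanocyte genes tested. The other was the receptor KIT, with 6.19, 4.16 and 4.21 TPM in papilla, against 0.797, 1.77 and 3.25 TPM in sheath (log2 fold change 1.06 ± 0.29, adjusted p = 0.0129). TYRP1 was no longer called without any 1 sheath library, nor KIT without papilla replicate 1 (adjusted p = 0.0527). The muscle determination gene MYOD1 was listed at 0 in all papilla libraries and at 0.340, 0 and 0 TPM in sheath. Of 20 listed skeletal muscle genes, 6 had a match in the authors' table and 5 were tested. These 5 were led by the actin ACTA1, with 3498, 3786 and 3755 TPM in papilla, against 2166, 2908 and 2005 TPM in sheath (not called, adjusted p = 0.062). ACTA1 can share reads with other actins and was called higher without sheath replicate 2 (adjusted p = 0.0442). The troponins TNNT3 and TNNC2, the 2 skeletal muscle genes called, averaged 2.46 and 1.92 TPM in papilla against 0.644 and 0 TPM in sheath. Both were under 1 TPM in every sheath library and passed the filter through papilla alone. They could come out only higher, so their direction is not a result. With any 1 papilla library left out, TYRP1, TNNT3 and TNNC2 were under the filter and not tested.

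**Figure D2:**
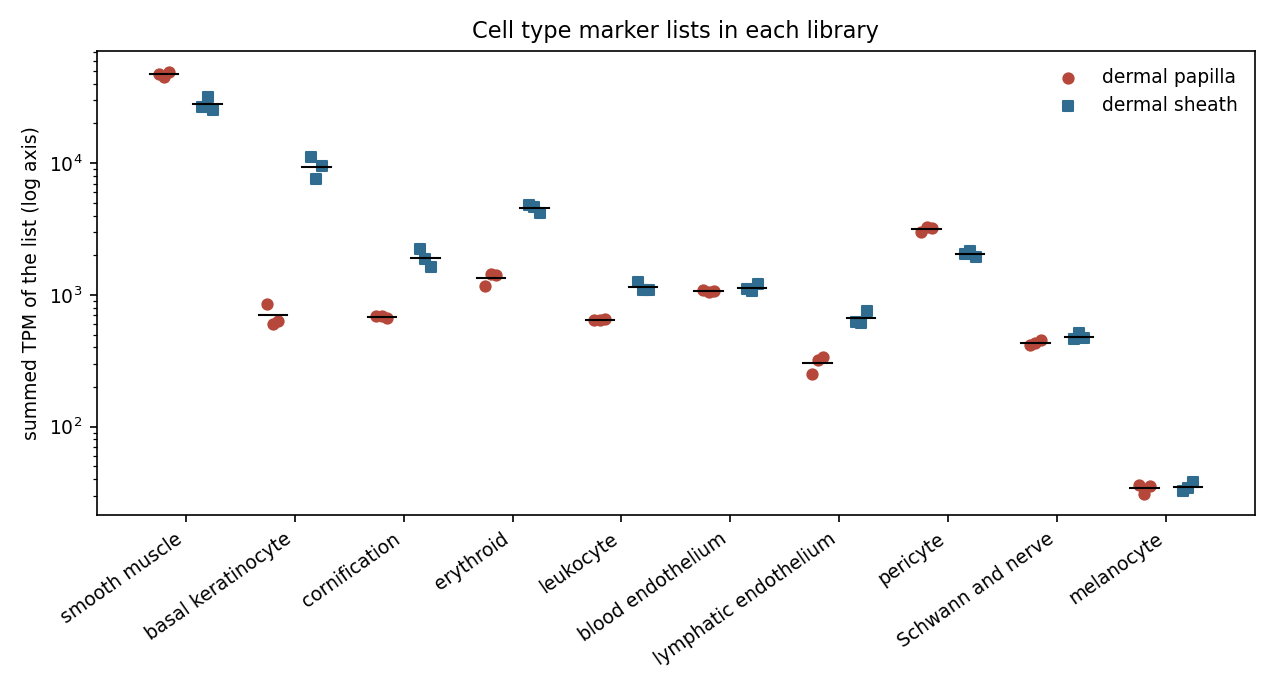
Summed TPM of each cell type marker list (log axis) in the 3 papilla libraries (red circles) and the 3 sheath libraries (blue squares), with black lines at the group means. Basal keratinocyte sums lie at 600.1 to 859.8 TPM in papilla and 7567 to 11151 TPM in sheath, smooth muscle sums are higher in papilla, and blood endothelial and melanocyte sums overlap.

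The strongest papilla genes were secreted regulators, receptors and enzymes, most of which the sheath held at only a few TPM. PTN (pleiotrophin), a heparin-binding growth factor, had 766, 731 and 607 TPM in the papilla libraries, against 0.0944, 7.43 and 10.9 TPM in the sheath libraries. Its log2 fold change of 7.19 ± 0.70 (SE, adjusted p = 3.89e-05) ranked first of the called genes that carry a symbol, reach a mean of 10 TPM in one of the groups and separate them fully. The spread lay in the sheath, where the first library stood near 0. MDK (midkine), the other member of this growth factor family, had 1421, 1423 and 1272 TPM in papilla, against 144, 152 and 139 TPM in sheath, with close replicates in both groups (log2 fold change 3.23 ± 0.10, adjusted p = 6.92e-09).

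PRLHR2, a receptor for prolactin-releasing peptide, had 91.99, 98.5 and 68.6 TPM in papilla, against 0.307, 1.53 and 1.11 TPM in sheath (log2 fold change 5.50 ± 0.43, adjusted p = 5.45e-06). PRLH, the gene of that peptide, was listed at 0 in all 3 sheath libraries and stood at 4.54, 2.54 and 2.104 TPM in papilla. Receptor and peptide transcripts were thus both present in papilla, the peptide at low levels. CRYBB2, a beta-crystallin best known from the lens, had 36.1, 32.9 and 32.6 TPM in papilla, against 0, 0.431 and 0 TPM in sheath (log2 fold change 4.95 ± 0.30), and 2 of the 3 sheath libraries listed it at 0. CRYBB2 passed the filter through papilla alone and could come out only higher, so its direction is not a result.

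Extracellular antagonists stood high in the same ranking. WFIKKN2, which binds myostatin and GDF11 outside the cell, was both among the strongest and among the most abundant papilla genes, with 3369.6, 3950.04 and 3320.4 TPM in the papilla libraries, against 143, 306 and 139 TPM in the sheath libraries (log2 fold change 4.27 ± 0.27, adjusted p = 1.14e-06). NOG2, a noggin that blocks BMP ligands, had 327, 292 and 297 TPM in papilla, against 18.3, 19.6 and 10.6 TPM in sheath (log2 fold change 4.20 ± 0.29, adjusted p = 2.29e-06). DKK1, which blocks the Wnt co-receptors, had 33.2, 19.7 and 33.2 TPM in papilla, against 0, 1.42 and 0 TPM in sheath (log2 fold change 4.43 ± 0.39, adjusted p = 9.08e-06). No overlap of the groups was a condition of this ranking. NDP (norrin), a secreted ligand that activates Wnt signalling through the receptor FZD4, had 59.1, 52.05 and 57.2 TPM in papilla, against 1.51, 1.16 and 0.955 TPM in sheath (log2 fold change 4.70 ± 0.78, adjusted p = 0.000863), while FZD4 itself was lower in papilla, with 32.6, 35.8 and 42.3 TPM in papilla, against 57.8, 57.4 and 53.1 TPM in sheath (log2 fold change -0.60 ± 0.12, adjusted p = 0.0027).

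Enzymes and intracellular proteins completed the 15 strongest. HNMT, which inactivates histamine by methylation, had 59.4, 66.1 and 52.8 TPM in papilla, against 1.04, 1.99 and 3.11 TPM in sheath (log2 fold change 4.36 ± 0.27, adjusted p = 6.93e-07). FAIM2, an inhibitor of Fas-induced cell death, had 61.9, 52.3 and 47.5 TPM in papilla, against 1.96, 2.36 and 0.783 TPM in sheath (log2 fold change 4.39 ± 0.21, adjusted p = 1.2e-07). DGKB, a diacylglycerol kinase, had 44.4, 44.5 and 38.9 TPM in papilla, against 0.572, 2.76 and 1.07 TPM in sheath (log2 fold change 4.24 ± 0.30, adjusted p = 2.07e-06). These too were ranked only because the groups did not overlap. MYL10, a myosin light chain, reached 338, 417 and 348 TPM in papilla against 19.3, 32.3 and 13.7 TPM in sheath. CPZ, a carboxypeptidase that binds Wnt proteins, and SHISAL1 had log2 fold changes of 4.07 ± 0.45 and 4.27 ± 0.70. CPZ was under 1 TPM in every sheath library and passed the filter through papilla alone, so its direction is not a result. COL26A1 and TFAP2C, the rest of the 15, are given with the collagens and the transcription factors.

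**Figure D3:**
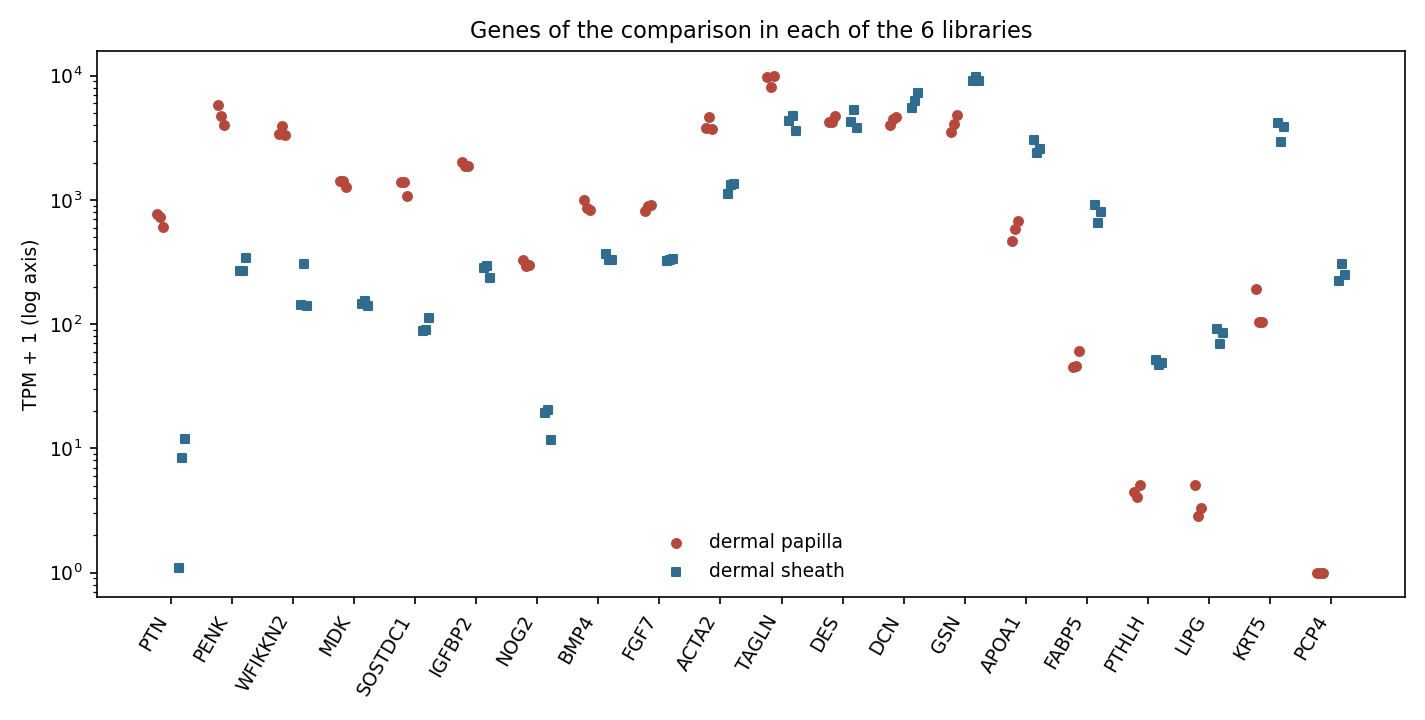
TPM + 1 (log axis) of 20 genes in each of the 3 papilla libraries (red circles) and 3 sheath libraries (blue squares). PTN shows 1 sheath library near 0 TPM, DES overlaps between the groups, and PCP4 is at 0 TPM in all papilla libraries.

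The named genes furthest below 0 were mostly epidermal. Genes that the file lists by an Ensembl identifier alone took 29 of the 30 smallest log2 fold changes and 6 of the 30 largest, and since 0 of these identifiers matched the RefSeq table used for names, they are counted but not named. Of the 15 smallest log2 fold changes of called genes with a symbol, a mean of at least 10 TPM in sheath, no overlap and at least 1 papilla library above 0, 8 belonged to the basal keratinocyte or cornification list, among them KRT5 (-4.83), KRT14 (-4.47), SFN (-4.56), a 14-3-3 protein of epithelia, and ELOVL4 (-4.63), the elongase that makes the very long fatty acids of the skin barrier. GJB6, which encodes connexin 30 of epidermal gap junctions, had 2.05, 0.919 and 1.08 TPM in papilla, against 71.3, 60.8 and 65.6 TPM in sheath (log2 fold change -4.86 ± 0.30, adjusted p = 6.68e-07). Several others outside those lists are also known from epithelia, such as the splicing regulator ESRP2, with 2.07, 0.987 and 0.0994 TPM in papilla, against 39.1, 33.5 and 36.4 TPM in sheath, the serpin SERPINB5, with 16.3, 10.8 and 13.8 TPM in papilla, against 307, 254 and 292 TPM in sheath, and periplakin (PPL), with 2.19, 2.25 and 3.92 TPM in papilla, against 57.1, 58.2 and 58.5 TPM in sheath. The summed basal keratinocyte level given above moves with all of these, and its part in them was not tested. Members of the keratin family, and those of the epidermal differentiation complex such as EDQM3, can share reads, so their single values are uncertain.

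Other sheath genes had roles in lipid and hormone biology. LIPG, a lipase of the vessel wall that acts on lipoproteins, had 4.09, 1.84 and 2.34 TPM in the papilla libraries, against 90.4, 68.6 and 83.8 TPM in the sheath libraries (log2 fold change -4.48 ± 0.21, adjusted p = 8e-08). HSD3B1, a dehydrogenase of steroid hormone synthesis, had 0.377, 0.218 and 0.138 TPM in papilla, against 22.9, 20.9 and 20.7 TPM in sheath (log2 fold change -4.18 ± 0.17). CRH, the corticotropin-releasing hormone, was listed at 0 in 2 papilla libraries and at 0.211 TPM in the other, against 25.1, 13.4 and 17.02 TPM in sheath. PDZRN4 and ANKRD22 had log2 fold changes of -4.23 ± 0.26 and -4.11 ± 0.53. No overlap of the groups was a condition for naming these genes. HSD3B1, CRH, PDZRN4 and ANKRD22 were under 1 TPM in every papilla library and passed the filter through sheath alone. They could come out only lower, so their direction is not a result. ANKRD22 stood at 5.22, 0.0758 and 0.326 TPM in the peripheral pulp libraries, and LIPG at 9.32, 10.0 and 8.61 TPM. The basal keratinocyte list summed there to 2366, 884 and 1096 TPM. The part of epidermal cells in these genes was not tested.

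A further 3 genes with a symbol and a mean of at least 10 TPM in sheath were listed at 0 in every papilla library, so no fold change is given. PCP4, a small calmodulin-binding protein, stood at 222, 301 and 247 TPM in the sheath libraries. FADS6, a putative fatty acid desaturase, stood at 27.8, 17.3 and 13.6 TPM, and A4GALT, a galactosyltransferase of glycolipids, at 17.99, 17.5 and 18.2 TPM. In the peripheral pulp libraries FADS6 stood at 12.9, 2.13 and 0.686 TPM, and PCP4 and A4GALT at 0. The part of epidermal cells in these genes was not tested. The reverse, at least 10 TPM in papilla and 0 in every sheath library, was met by 0 genes with a symbol.

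Smooth muscle genes were abundant in both tissues and higher in papilla. Of 25 genes tested, 16 were higher and 0 lower, with a median log2 fold change of 0.65. The list summed to 47784, 44938 and 49286 TPM in the papilla libraries and to 26492, 31886 and 25363 TPM in the sheath libraries, without overlap. The number higher was 10 without papilla replicate 3, without sheath replicate 1 or without sheath replicate 3. It was 20 in a fit on the 6 papilla and sheath libraries alone, without the pulp libraries.

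The members differed in how clearly they separated. ACTA2, the smooth muscle actin, had 3796, 4674 and 3734 TPM in the papilla libraries, against 1114, 1323 and 1343 TPM in the sheath libraries (log2 fold change 1.69 ± 0.13, adjusted p = 3.43e-06). ITGA8, an integrin of smooth muscle and mesenchyme, had 392, 314 and 418 TPM in papilla, against 29.4, 63.7 and 48.7 TPM in sheath (log2 fold change 3.02 ± 0.24, adjusted p = 6.27e-06). PDLIM3, a scaffold of actin bundles, had a log2 fold change of 1.57 ± 0.18. The most abundant member was TAGLN (transgelin), an actin-binding protein, with 9719, 8101 and 10020.3 TPM in the papilla libraries, against 4342, 4781 and 3589 TPM in the sheath libraries. Its groups did not overlap, yet its adjusted p of 0.0355 passed the threshold narrowly (log2 fold change 1.13 ± 0.38). The standard error comes from a fit that includes the pulp libraries. TAGLN stood there at 12.5, 24.2 and 31.5 TPM in peripheral and 253, 89.2 and 175 TPM in central pulp. Without any 1 of the 6 papilla and sheath libraries the adjusted p of TAGLN lay between 0.0581 and 0.1. The call was lost also for ACTG2, the enteric actin, without any library but papilla replicate 2 (0.0501 to 0.0719).

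MYH11, the smooth muscle myosin heavy chain, had 4362, 5269 and 4821 TPM in papilla, against 2116, 3371 and 2558 TPM in sheath (log2 fold change 0.87 ± 0.27, adjusted p = 0.0236). Its adjusted p was 0.0739 without papilla replicate 2, 0.0564 without papilla replicate 3, 0.089 without sheath replicate 1 and 0.0601 without sheath replicate 3. For CSRP1, a LIM protein of muscle (log2 fold change 0.60 ± 0.21, adjusted p = 0.0438), it lay between 0.0538 and 0.128 without papilla replicate 1 or 3 or any 1 sheath library. The intermediate filament gene DES (desmin) had 4239.8, 4214 and 4767 TPM in papilla, against 4244, 5342 and 3799.8 TPM in sheath and overlapped entirely (adjusted p = 0.989). CNN1 (calponin), another contractile protein, was not called either, with 906, 800.4 and 1189 TPM in papilla, against 626, 805 and 557 TPM in sheath. Within the list ITGA8 and ACTA2 were the most clearly higher, while desmin did not pass the test.

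By difference in TPM rather than by fold, PENK came second to TAGLN among genes called higher. PENK, the precursor of the enkephalin opioid peptides, had 5830.0, 4709 and 4023 TPM in the papilla libraries, against 267, 269 and 339.6 TPM in the sheath libraries (log2 fold change 4.04 ± 0.15, adjusted p = 1.8e-08). IGFBP2, a binding protein that limits insulin-like growth factors, had 2035, 1858 and 1877 TPM in papilla, against 281, 295 and 235 TPM in sheath (log2 fold change 2.83 ± 0.58, adjusted p = 0.00347). Only genes without overlap of the groups entered this ranking, in either direction. The actin-severing protein GSN (gelsolin) showed the largest TPM difference the other way among genes with a symbol, with 3511, 4069.8 and 4794 TPM in the papilla libraries, against 9025, 9851 and 9098 TPM in the sheath libraries (log2 fold change -1.19 ± 0.14, adjusted p = 8.31e-05). The secreted antioxidant enzyme GPX3 had 3812, 3399 and 3819.9 TPM in papilla, against 6972, 5906 and 6201 TPM in sheath (log2 fold change -0.79 ± 0.15, adjusted p = 0.00172). The calcium-binding protein S100A6 had 1840.2, 1689.6 and 1607 TPM in papilla, against 4029, 3341 and 3020.4 TPM in sheath (log2 fold change -1.01 ± 0.12, adjusted p = 6.65e-05).

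Genes of the BMP pathway were more often higher than lower in papilla, among ligands, targets and antagonists alike. BMPs are secreted proteins that signal through receptor kinases and SMAD proteins to the ID genes, and antagonists such as noggin bind them outside the cell. Of 22 ligands, receptors, SMADs and targets tested, 12 were higher and 1 was lower in papilla, with a median of 0.47. Of 20 extracellular antagonists and modulators, 9 were higher and 4 lower, with a median of 0.59.

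Among the ligands, BMP4 was the most abundant, with 1002, 864 and 835 TPM in the papilla libraries, against 364, 325 and 329 TPM in the sheath libraries (log2 fold change 1.40 ± 0.18, adjusted p = 0.000122). BMP7 had 158, 163 and 172 TPM in papilla, against 32.5, 36.8 and 31.02 TPM in sheath (log2 fold change 2.27 ± 0.13, adjusted p = 4.29e-07). GDF3 and GDF7, related ligands at lower levels, had log2 fold changes of 1.99 ± 0.17 and 2.24 ± 0.27. BMP5 was the ligand that went the other way, with 0.766, 1.08 and 1.01 TPM in papilla, against 3.35, 5.26 and 3.12 TPM in sheath (log2 fold change -1.31 ± 0.22, adjusted p = 0.00073). Of the receptors, ACVR1 was called, with 98.1, 95.4 and 103 TPM in papilla, against 70.2, 65.7 and 70.4 TPM in sheath (log2 fold change 0.52 ± 0.07, adjusted p = 0.000249). The targets ID2, an inhibitor of differentiation factors, and SMAD6, an inhibitory SMAD, were both higher. ID2 had 366, 356 and 321 TPM in papilla, against 98.3, 101 and 96.4 TPM in sheath (log2 fold change 1.81 ± 0.12, adjusted p = 1.45e-06). SMAD6 had 86.5, 76.4 and 88.2 TPM in papilla, against 31.8, 26.3 and 26.7 TPM in sheath (log2 fold change 1.53 ± 0.10, adjusted p = 8.59e-07).

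The antagonists included large differences. GREM1 (gremlin), which binds BMPs, had 79.7, 76.9 and 66.02 TPM in papilla, against 5.01, 4.55 and 5.98 TPM in sheath (log2 fold change 3.61 ± 0.37, adjusted p = 4.22e-05). BMPER, an extracellular BMP modulator, had 69.7, 63.3 and 69.1 TPM in papilla, against 2.86, 7.64 and 5.95 TPM in sheath (log2 fold change 3.48 ± 0.34, adjusted p = 1.72e-05). FST (follistatin), a binder of activins and BMPs, had 152, 123 and 118 TPM in papilla, against 11.5, 24.1 and 30.1 TPM in sheath (log2 fold change 2.62 ± 0.27, adjusted p = 3.74e-05). BAMBI, a decoy receptor, had 126, 132 and 105 TPM in papilla, against 27.7, 24.4 and 23.6 TPM in sheath (log2 fold change 2.22 ± 0.22, adjusted p = 2.51e-05). Of 17 TGF-beta and activin genes, 3 were higher (WFIKKN2, FST and TGFBI) and 5 lower. The activin subunits were among the lower ones, with 1.45, 0.981 and 1.44 TPM in papilla, against 19.002, 13.7 and 20.5 TPM in sheath for INHBB (log2 fold change -3.02 ± 0.27, adjusted p = 8.46e-06) and 16.3, 14.6 and 30.7 TPM in papilla, against 59.98, 62.8 and 45.8 TPM in sheath for INHBA (log2 fold change -1.47 ± 0.25, adjusted p = 0.000737). The number lower was 3 without papilla replicate 1 or 2 or without sheath replicate 3. All 3 ligands TGFB1, TGFB2 and TGFB3 were detected, and of these TGFB2 was called, lower in papilla with 24.8, 23.2 and 28.1 TPM in papilla, against 41.1, 43.4 and 44.7 TPM in sheath (log2 fold change -0.74 ± 0.18, adjusted p = 0.0067).

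Wnt genes were counted in 3 lists by role. Wnt ligands bind Frizzled and ROR receptors, R-spondins amplify the signal through LGR receptors, and AXIN2, LEF1, NKD1 and SP5 are common transcriptional targets. Among 16 R-spondins, LGR receptors, effectors and targets, 9 were higher and 2 lower (median 0.64, or 0.36 to 0.40 without any 1 papilla library). With a papilla library left out, SP5 was under the filter, so those medians are over 15 genes. Among 22 ligands and receptors, 8 were higher and 7 lower, and among 16 secreted or membrane antagonists 6 were higher and 6 lower, so that in both of these lists members lay on both sides.

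Of the ligands, WNT5A was higher, with 107, 90.3 and 90.3 TPM in papilla, against 43.5, 36.8 and 34.1 TPM in sheath (log2 fold change 1.31 ± 0.11, adjusted p = 7.48e-06). Its receptor ROR1 had 116, 106 and 111 TPM in papilla, against 22.4, 27.7 and 27.2 TPM in sheath (log2 fold change 2.07 ± 0.10, adjusted p = 1.43e-07). The receptor RYK was higher too (0.78 ± 0.09). WNT2B was lower (-0.84 ± 0.12). WNT10A, a ligand of epidermal appendages, had 0.867, 0.455 and 0 TPM in papilla, against 11.2, 9.32 and 17.2 TPM in sheath (log2 fold change -3.24 ± 0.33). WNT10A passed the filter through sheath alone and could come out only lower, so its direction is not a result. The part of epidermal cells in WNT10A was not tested.

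The target SP5 had 17.2, 10.6 and 10.9 TPM in papilla, against 0.306, 0 and 0 TPM in sheath (log2 fold change 3.64 ± 0.21). SP5 counts among the higher genes of its list, but it passed the filter through papilla alone. It could come out only higher, so its direction is not a result. AXIN2, a feedback inhibitor, had 41.2, 32.7 and 41.03 TPM in papilla, against 20.4, 19.5 and 19.1 TPM in sheath (log2 fold change 0.92 ± 0.12, adjusted p = 0.000146). LEF1, the nuclear partner of beta-catenin, was low in both but higher in papilla, with 4.25, 6.41 and 3.71 TPM in papilla, against 0.402, 0.799 and 1.06 TPM in sheath (log2 fold change 1.71 ± 0.21, adjusted p = 8.32e-05). Of the R-spondins, RSPO2 had 20.996, 20.01 and 18.4 TPM in papilla, against 4.33, 4.85 and 5.45 TPM in sheath (log2 fold change 1.83 ± 0.27, adjusted p = 0.000325). RSPO4 had 2.11, 1.48 and 1.51 TPM in papilla, against 6.03, 8.197 and 8.47 TPM in sheath (log2 fold change -1.66 ± 0.38, adjusted p = 0.00478), so they stood on opposite sides. MYC, which is a target in several tissues, was lower (log2 fold change -1.38 ± 0.17, adjusted p = 8.62e-05).

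The antagonists lay on both sides. SOSTDC1, which inhibits both Wnt and BMP signalling, had 1398, 1403 and 1078 TPM in the papilla libraries, against 87.1, 89.2 and 112 TPM in the sheath libraries (log2 fold change 3.73 ± 0.12, adjusted p = 1.23e-08). WIF1, a Wnt-binding inhibitor, had 14.6, 11.5 and 14.5 TPM in papilla, against 0.341, 0 and 1.68 TPM in sheath (log2 fold change 3.24 ± 0.31, adjusted p = 1.64e-05). SFRP1, a secreted Frizzled-related protein, had 671, 640.4 and 615 TPM in papilla, against 206, 187 and 211 TPM in sheath (log2 fold change 1.67 ± 0.24, adjusted p = 0.000274). Its relatives SFRP4 and SFRP5 were lower, with 23.6, 21.9 and 34.9 TPM in papilla, against 104, 111 and 108 TPM in sheath for SFRP4 (log2 fold change -1.99 ± 0.19, adjusted p = 1.35e-05) and 3.17, 1.91 and 2.903 TPM in papilla, against 12.2, 14.1 and 9.46 TPM in sheath for SFRP5 (log2 fold change -1.82 ± 0.21, adjusted p = 5.27e-05). The groups were apart in all 5 of these genes.

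Of 22 FGF ligands, receptors and related genes, 8 were higher, 1 was lower and 13 were not called in papilla (median 0.40). Without papilla replicate 3 the number higher was 5, and without papilla replicate 1 the median was 0.16. FGF7, a growth factor that mesenchyme sends to epithelium, had 812, 895 and 907 TPM in the papilla libraries, against 322, 329.6 and 332 TPM in the sheath libraries (log2 fold change 1.41 ± 0.12, adjusted p = 5.69e-06). FGF10, of the same subfamily, had 268, 313 and 429 TPM in papilla, against 124, 169 and 190.4 TPM in sheath (log2 fold change 1.05 ± 0.33, adjusted p = 0.0246). Its adjusted p was 0.0531 without papilla replicate 2, 0.0908 without papilla replicate 3, 0.093 without sheath replicate 1 and 0.0503 without sheath replicate 2. Among receptors, FGFR3 had 51.8, 51.8 and 52.9 TPM in papilla, against 8.899, 11.5 and 10.4 TPM in sheath (log2 fold change 2.25 ± 0.16, adjusted p = 1.59e-06) and FGFR2 64.9, 58.2 and 50.2 TPM in papilla, against 35.6, 34.96 and 38.4 TPM in sheath (log2 fold change 0.65 ± 0.11, adjusted p = 0.000931). FGF18 was the member that was lower, with 1.82, 2.85 and 3.39 TPM in papilla, against 7.91, 11.2 and 9.88 TPM in sheath (log2 fold change -1.54 ± 0.31, adjusted p = 0.00216), though not called with a pseudocount of 0.1 (adjusted p = 0.0916).

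Of 15 hedgehog receptors, targets and related genes, 7 were higher, 1 was lower and 7 were not called (median 0.48), and 4 were higher without papilla replicate 1. GLI1, the transcription factor that reads out pathway activity, had 21.6, 16.99 and 20.4 TPM in papilla, against 4.38, 3.75 and 3.5002 TPM in sheath (log2 fold change 2.08 ± 0.14, adjusted p = 1.33e-06). PTCH1, the receptor and also a target, had 17.3, 21.2 and 17.8 TPM in papilla, against 3.32, 5.67 and 5.57 TPM in sheath (log2 fold change 1.78 ± 0.16, adjusted p = 9.09e-06). SCUBE3, a secreted protein of a family that releases hedgehog ligands, had 54.5, 38.5 and 49.8 TPM in papilla, against 1.18, 2.04 and 3.07 TPM in sheath (log2 fold change 4.00 ± 0.35, adjusted p = 7.98e-06). Its relative SCUBE2 had 0.982, 1.77 and 2.26 TPM in papilla, against 6.46, 6.37 and 3.89 TPM in sheath (log2 fold change -1.30 ± 0.35, adjusted p = 0.0118). These 2 relatives stood on opposite sides without overlap, although SCUBE2 was not called with a pseudocount of 0.1 (adjusted p = 0.0732).

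Other growth factors were more often lower in papilla, with 7 of 34 higher and 16 lower (median -0.45, or -0.29 without sheath replicate 3). Besides PTN and MDK, the ectodysplasin receptor EDAR, which drives the formation of skin appendages, was higher with 198, 209 and 166 TPM in papilla, against 26.04, 54.3 and 35.7 TPM in sheath (log2 fold change 2.33 ± 0.21, adjusted p = 1.31e-05). The related receptor EDA2R was lower, with 9.74, 8.36 and 11.5 TPM in papilla, against 37.4, 33.6 and 41.8 TPM in sheath (log2 fold change -1.83 ± 0.17, adjusted p = 1.14e-05). HBEGF, an EGF-like ligand, had 11.6, 14.5 and 13.7 TPM in papilla, against 40.1, 39.9 and 36.1 TPM in sheath (log2 fold change -1.48 ± 0.19, adjusted p = 9.49e-05). Hepatocyte growth factor HGF and its receptor MET were both lower, with log2 fold changes of -2.38 ± 0.41 and -1.93 ± 0.32. The insulin-like growth factor gene (IGF-I) had 0.732, 1.74 and 0.857 TPM in papilla, against 2.22, 3.76 and 5.13 TPM in sheath (log2 fold change -1.14 ± 0.27, adjusted p = 0.00547). IGFBP4, a binding protein, was higher (log2 fold change 0.74 ± 0.11, adjusted p = 0.000238). In the insulin-like growth factor list 3 of 15 genes were higher and 2 lower.

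Peptide hormones and their receptors also lay on both sides, with 9 of 30 higher and 9 lower, or 5 lower without sheath replicate 3. PTHLH, the parathyroid hormone-related peptide, had 3.45, 3.03 and 4.06 TPM in papilla, against 50.9, 46.2 and 47.4 TPM in sheath (log2 fold change -3.45 ± 0.13, adjusted p = 1.8e-08). The part of epidermal cells in PTHLH was not tested. Its receptor PTH1R was near 0 in papilla, with 0.276, 0.0534 and 0.0365 TPM in papilla, against 6.55, 4.42 and 3.55 TPM in sheath (log2 fold change -2.35 ± 0.55). PTH1R passed the filter through sheath alone and could come out only lower, so its direction is not a result. ASIP (agouti), an antagonist of melanocortin receptors, had 16.1, 12.8 and 13.3 TPM in papilla, against 0.00512, 0.00787 and 0.0635 TPM in sheath (log2 fold change 3.87 ± 0.27). ASIP passed the filter through papilla alone, so its direction is not a result either. RAMP1, which forms the receptor of calcitonin gene-related peptide, had 93.04, 84.8 and 66.9 TPM in papilla, against 11.4, 14.5 and 9.46 TPM in sheath (log2 fold change 2.70 ± 0.23, adjusted p = 6.64e-06). AGTR1, the angiotensin receptor, was lower, with 2.701, 5.39 and 4.61 TPM in papilla, against 25.9, 32.2 and 26.9 TPM in sheath (log2 fold change -2.52 ± 0.46, adjusted p = 0.00136).

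Transcription factors that pattern mesenchyme differed in both directions. Of 52 patterning factors outside the HOX clusters, 23 were higher and 12 lower in papilla (median 0.49). TFAP2C, an AP-2 factor, had 33.9, 26.7 and 31.1 TPM in papilla, against 0.523, 1.37 and 0.869 TPM in sheath (log2 fold change 4.06 ± 0.17, adjusted p = 3.53e-08). PRRX1, a homeobox factor of limb and skin mesenchyme and the most abundant of the factors named here, had 1606, 1458 and 1404 TPM in the papilla libraries, against 388, 406 and 384 TPM in the sheath libraries (log2 fold change 1.92 ± 0.11, adjusted p = 5.51e-07). TBX18, a T-box factor that marks the papilla of mouse hair, had 23.8, 18.3 and 21.3 TPM in papilla, against 2.86, 2.99 and 2.18 TPM in sheath (log2 fold change 2.59 ± 0.12, adjusted p = 9.06e-08). SHOX2, SNAI1, ALX4 and TWIST1 were also higher, with log2 fold changes of 2.90 ± 0.22, 1.38 ± 0.10, 2.60 ± 0.22 and 1.31 ± 0.12.

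Among those lower in papilla were other homeobox factors. IRX5 had 0.508, 0.304 and 1.23 TPM in papilla, against 18.9, 10.5 and 13.8 TPM in sheath (log2 fold change -3.19 ± 0.28, adjusted p = 7.29e-06), while its family members IRX1 and IRX2 were higher (0.78 ± 0.14 and 0.83 ± 0.12). LMX1B, a LIM homeobox factor of dorsal limb mesenchyme, had 1.51, 1.01 and 0.329 TPM in papilla, against 9.99, 10.9 and 12.3 TPM in sheath (log2 fold change -2.67 ± 0.42, adjusted p = 0.000426). BARX2 had 72.4, 42.3 and 38.8 TPM in papilla, against 274, 224 and 286 TPM in sheath (log2 fold change -2.38 ± 0.36, adjusted p = 0.000439). The keratinocyte list moved in the same direction, and its part in BARX2 was not tested. MKX (mohawk), a factor of tendon cells, was near 0 in papilla, with 0.164, 0.147 and 0.2595 TPM in papilla, against 15.4, 14.9 and 14.02 TPM in sheath (log2 fold change -3.73 ± 0.16). MKX passed the filter through sheath alone and could come out only lower, so its direction is not a result.

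HOX genes, which record position along the body axis, were higher in papilla wherever they were called. Of 27 genes tested, 17 were higher and 0 lower (median 0.59), and they summed to 1326 to 1431 TPM in papilla against 777 to 819 TPM in sheath. HOXC10 had 224, 221 and 200.02 TPM in papilla, against 70.4, 70.1 and 62.04 TPM in sheath (log2 fold change 1.66 ± 0.14, adjusted p = 4.9e-06). HOXA10 had 31.4, 30.1 and 29.3 TPM in papilla, against 6.99, 8.19 and 4.25 TPM in sheath (log2 fold change 2.10 ± 0.17, adjusted p = 4.56e-06). HOXB5 had close replicates, with 87.04, 86.7 and 83.7 TPM in papilla, against 55.02, 55.1 and 54.1 TPM in sheath (log2 fold change 0.64 ± 0.06, adjusted p = 1.92e-05). HOXC8 averaged 31.3 TPM in papilla and 26.2 TPM in sheath and was not called (adjusted p = 0.197). The direction of the median was the same under both other scalings of TPM, which gave 17 and 19 genes higher and none lower.

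A list of genes known from the hair dermal papilla of mouse had 14 of 21 members higher and 0 lower in papilla, with a median of 1.31. Besides FGF7, TBX18, ALX4, WIF1 and BMP4 it includes VCAN (versican), a proteoglycan of the papilla matrix, with 224, 243 and 201 TPM in papilla, against 81.5, 110.3 and 119.8 TPM in sheath (log2 fold change 1.11 ± 0.13, adjusted p = 7.76e-05). The adhesion molecule NCAM1 had 173, 179 and 178 TPM in papilla, against 55.7, 59.7 and 62.4 TPM in sheath (log2 fold change 1.56 ± 0.35, adjusted p = 0.00472). ALPL, the alkaline phosphatase used to stain hair papillae, averaged 42.9 TPM in papilla and 46.1 TPM in sheath and was not called (adjusted p = 0.555). Pulp also carried members of this list. TBX18, TWIST1 and WIF1 averaged 82.0, 285 and 23.2 TPM in peripheral pulp and 86.6, 190 and 87.1 TPM in central pulp. Their papilla means were lower, at 21.2, 130 and 13.5 TPM. FGF7 and ALX4 were lower in both pulp groups than in papilla. These pulp values were not tested.

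**Figure D4:**
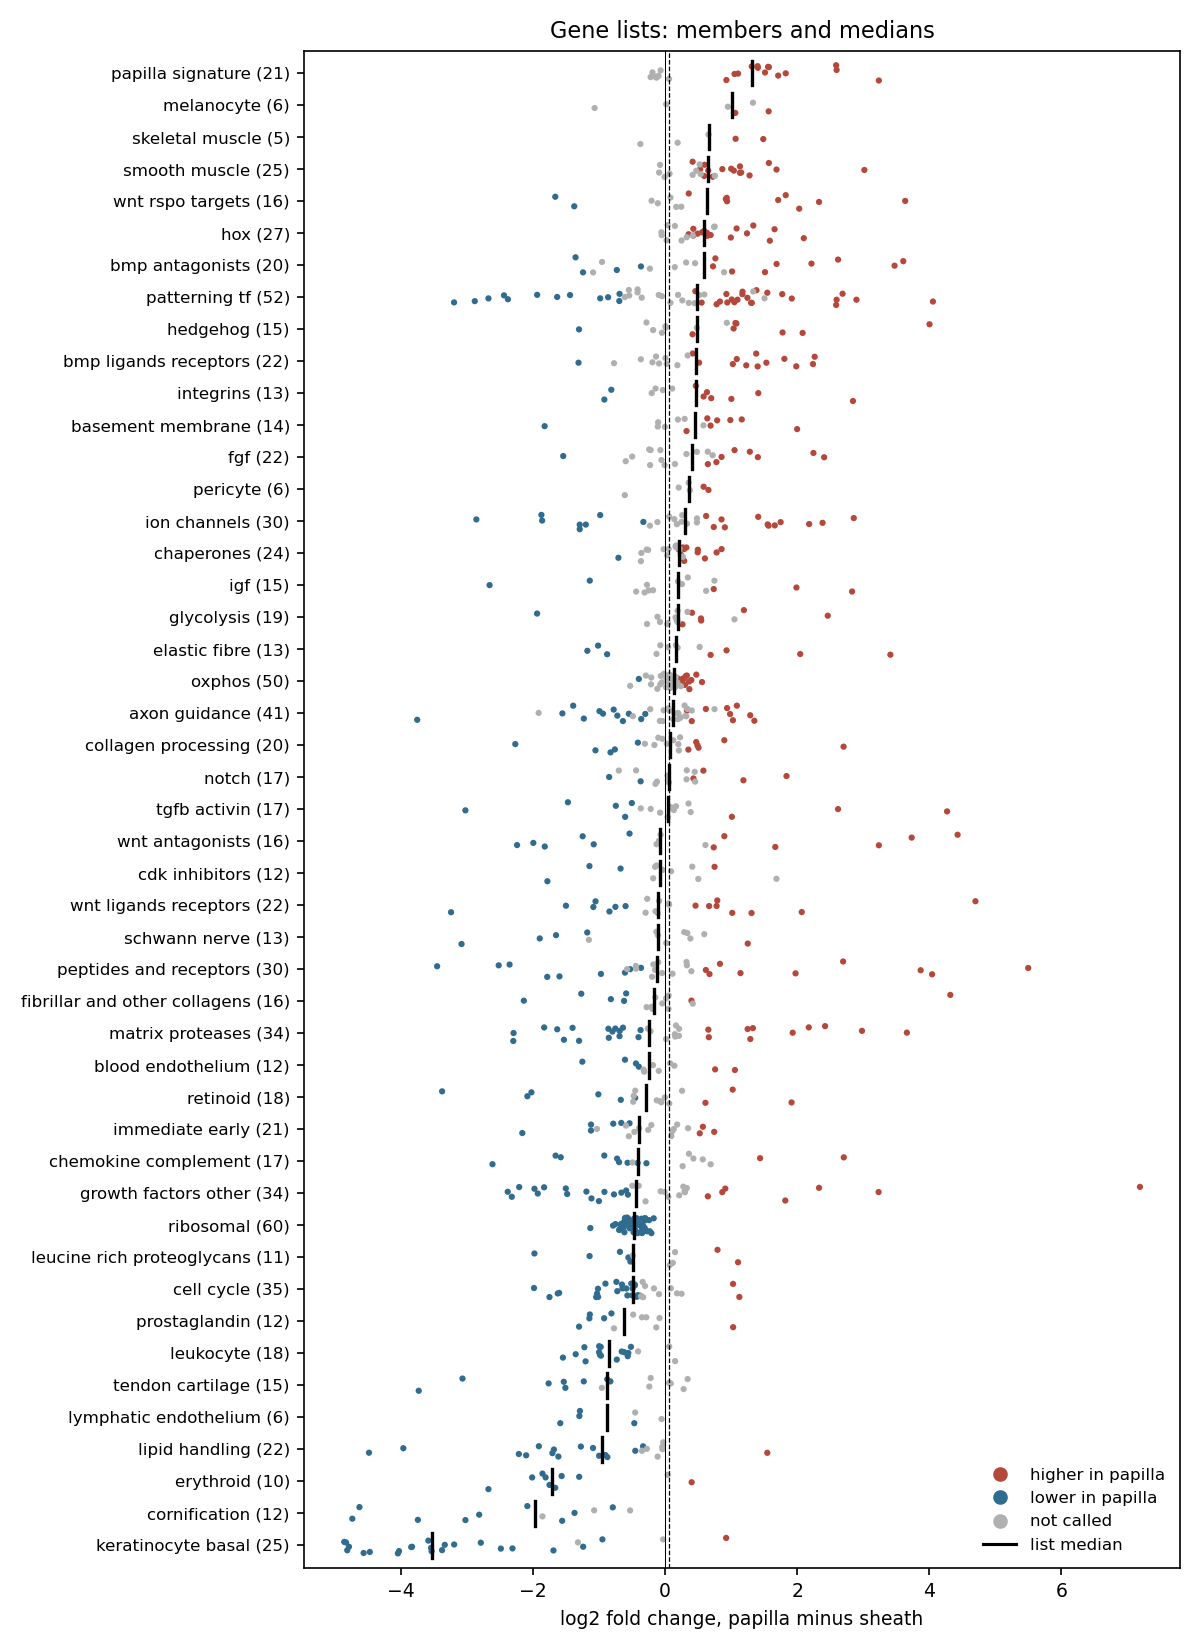
Log2 fold change of papilla minus sheath (x axis) for each tested member of 47 gene lists, with the number of members in brackets, called members in colour, a black bar at each list median and a dashed line at 0.06, the median of all genes. The basal keratinocyte median lies lowest at -3.53 and the papilla list highest at 1.31.

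The abundant fibrillar collagen genes COL1A1, COL1A2 and COL3A1 were not called, while other matrix genes, abundant ones among them, were. Of 16 collagen genes, 2 were higher and 5 lower. COL1A2 had 7471, 6324 and 7863 TPM in papilla, against 9168, 8721 and 8309 TPM in sheath and just missed the threshold (adjusted p = 0.0509), which it passed without papilla replicate 3 (0.0374). COL3A1 averaged 3422 TPM in papilla and 3517 TPM in sheath (adjusted p = 0.719). COL26A1, a minor collagen, had 80.7, 85.7 and 61.97 TPM in papilla, against 0.379, 6.48 and 4.43 TPM in sheath (log2 fold change 4.32 ± 0.50, adjusted p = 0.000107). COL28A1 went the other way, with 19.8, 56.1 and 62.1 TPM in papilla, against 185, 181 and 188 TPM in sheath (log2 fold change -2.14 ± 0.32, adjusted p = 0.000347).

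Enzymes that process collagen divided evenly, with 6 of 20 higher and 5 lower. ADAMTS14, a protease that trims procollagen, had 55.1, 52.3 and 52.7 TPM in papilla, against 7.15, 8.08 and 6.86 TPM in sheath (log2 fold change 2.70 ± 0.17, adjusted p = 7.96e-07). LOXL3, a cross-linking oxidase, was lower, with 79.6, 62.2 and 75.4 TPM in papilla, against 163, 138 and 152 TPM in sheath (log2 fold change -1.05 ± 0.11, adjusted p = 3.52e-05). Basement membrane genes were more often higher, at 7 of 14 higher and 1 lower (median 0.45). NID1 (nidogen), which links laminin to collagen IV, had 539.7, 552 and 481 TPM in papilla, against 241, 273 and 277 TPM in sheath (log2 fold change 0.99 ± 0.09, adjusted p = 1.26e-05). FREM1 was higher (1.16 ± 0.11). FREM2 (-1.82 ± 0.20), the 1 lower gene, was under 1 TPM in every papilla library. It passed the filter through sheath alone, so its direction is not a result.

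Elastic fibre genes gave 4 higher and 3 lower of 13. FBN3, a fibrillin, had 136, 143 and 129 TPM in papilla, against 10.1, 12.7 and 12.9 TPM in sheath (log2 fold change 3.41 ± 0.12, adjusted p = 1.8e-08). FBN2, another fibrillin, was also higher in papilla (log2 fold change 2.05 ± 0.17, adjusted p = 5.51e-06). FBN1 averaged 565 TPM in papilla and 495 TPM in sheath and was not called (adjusted p = 0.246). MFAP5, a microfibril protein, was lower, with 472, 563 and 704 TPM in papilla, against 1269, 1311 and 1302 TPM in sheath (log2 fold change -1.18 ± 0.13, adjusted p = 3.6e-05).

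Small leucine-rich proteoglycans, which bind collagen fibrils, and related genes gave 2 higher and 5 lower of 11 (median -0.49). DCN (decorin) was the most abundant of those called, with 4025, 4524 and 4610.3 TPM in the papilla libraries, against 5506, 6209 and 7312 TPM in the sheath libraries (log2 fold change -0.52 ± 0.13, adjusted p = 0.00842). OMD (osteomodulin) had 7.397, 7.12 and 8.3004 TPM in papilla, against 33.7, 28.2 and 37.2 TPM in sheath (log2 fold change -1.98 ± 0.16, adjusted p = 4.79e-06). OGN (osteoglycin) was lower as well (log2 fold change -1.14 ± 0.15, adjusted p = 0.000156). Tendon and cartilage genes had 0 of 15 higher and 8 lower (median -0.88). TNMD (tenomodulin), a membrane protein of tendon, had 431, 498 and 579 TPM in the papilla libraries, against 1561, 1402 and 1317 TPM in the sheath libraries (log2 fold change -1.51 ± 0.19, adjusted p = 0.000106). MATN4, a matrilin of cartilage, had 6.24, 3.897 and 4.02 TPM in papilla, against 52.98, 40.2 and 46.2 TPM in sheath (log2 fold change -3.07 ± 0.29, adjusted p = 1.44e-05). The tendon transcription factor SCX averaged 81.6 TPM in papilla and 67.3 TPM in sheath and was not called (adjusted p = 0.146).

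Matrix proteases and their inhibitors had 10 of 34 higher and 16 lower (median -0.24), or 6 higher with a median of -0.42 without papilla replicate 3. Among the 10, 7 were ADAMTS proteases. ADAMTS19 had 90.9, 89.6 and 77.9 TPM in papilla, against 4.12, 6.85 and 7.08 TPM in sheath (log2 fold change 3.66 ± 0.15, adjusted p = 3.53e-08). ADAMTS17 had 14.9, 11.4 and 11.2 TPM in papilla, against 0.415, 0.799 and 0.913 TPM in sheath (log2 fold change 2.98 ± 0.15). ADAMTS17 passed the filter through papilla alone, so its direction is not a result. The urokinase gene PLAU was lower, with 4.53, 4.25 and 3.53 TPM in papilla, against 12.8, 15.1 and 16.5 TPM in sheath (log2 fold change -1.63 ± 0.17, adjusted p = 2.89e-05). The protease CTSK (cathepsin K) and the collagenase MMP13 were lower as well (-0.86 ± 0.09 and -2.30 ± 0.26), and SERPINF1, a secreted serpin, had 1935, 2226 and 2293 TPM in papilla, against 3803, 4115 and 3709.5 TPM in sheath (log2 fold change -0.85 ± 0.09, adjusted p = 2.91e-05). Among integrins, the matrix receptors of the cell surface, 7 of 13 were higher and 2 lower (median 0.47). ITGB3 had 112, 115 and 109 TPM in papilla, against 38.7, 45.4 and 40.5 TPM in sheath (log2 fold change 1.41 ± 0.15, adjusted p = 3.18e-05), while the collagen receptor ITGA11 was lower, with 103, 85.7 and 114 TPM in papilla, against 207, 184 and 181 TPM in sheath (log2 fold change -0.92 ± 0.17, adjusted p = 0.00122).

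Lipid handling genes were lower in papilla, at 15 of 22 lower and 1 higher (median -0.95). APOA1, the main apolipoprotein of high-density lipoprotein, had 464, 581 and 679.5 TPM in the papilla libraries, against 3017, 2385 and 2548 TPM in the sheath libraries (log2 fold change -2.21 ± 0.27, adjusted p = 0.000114). G0S2, an inhibitor of the fat lipase, had 25.9, 27.3 and 22.03 TPM in papilla, against 118, 103 and 111 TPM in sheath (log2 fold change -2.10 ± 0.17, adjusted p = 5.47e-06). PLIN2, which coats lipid droplets, had 104, 98.7 and 103 TPM in papilla, against 168, 201 and 194 TPM in sheath (log2 fold change -0.87 ± 0.09, adjusted p = 2.39e-05). FABP5, a fatty acid binding protein that epidermis also makes, had 44.3, 44.7 and 59.5 TPM in papilla, against 911, 651 and 798 TPM in sheath (log2 fold change -3.96 ± 0.69, adjusted p = 0.00142). LPL, the lipoprotein lipase, was the exception, with 136, 133 and 118 TPM in papilla, against 40.8, 42.9 and 46.7 TPM in sheath (log2 fold change 1.55 ± 0.09, adjusted p = 5.4e-07). ADIPOQ, an adipocyte hormone, averaged 1988 TPM in papilla and 2149.8 TPM in sheath and was not called (adjusted p = 0.512). The keratinocyte list moved in the same direction, and its part in the lipid genes was not tested.

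Retinoid genes gave 3 higher and 6 lower of 18, or 3 lower without sheath replicate 3. RDH10, the first enzyme of retinoic acid synthesis, had 93.2, 102 and 104 TPM in papilla, against 22.7, 31.3 and 23.6 TPM in sheath (log2 fold change 1.92 ± 0.22, adjusted p = 5.27e-05). CYP26B1, which degrades retinoic acid, was lower, with 25.3, 16.4 and 18.6 TPM in papilla, against 45.3, 39.8 and 37.97 TPM in sheath (log2 fold change -1.01 ± 0.17, adjusted p = 0.00068). Complement and cytokine genes had 2 higher (MASP1 and the gene of IL-18) and 9 lower of 17, or 5 lower without papilla replicate 3 or without sheath replicate 1. MASP1, a protease of the lectin pathway, had 97.7, 82.7 and 73.7 TPM in papilla, against 11.2, 12.2 and 12.8 TPM in sheath (log2 fold change 2.71 ± 0.10, adjusted p = 1.8e-08). The chemokine CXCL14 had 52.8, 62.2 and 128 TPM in papilla, against 415, 553 and 435 TPM in sheath (log2 fold change -2.61 ± 0.47, adjusted p = 0.00163).

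Proliferation genes were lower in papilla. Of 35 cell cycle genes, 24 were lower and 2 higher (median -0.49), with sums of 581 to 664 TPM in papilla and 720.1 to 865 TPM in sheath. The mitotic kinase PLK1 had 5.45, 5.03 and 3.24 TPM in papilla, against 16.6, 15.1 and 21.2 TPM in sheath (log2 fold change -1.75 ± 0.17, adjusted p = 1.99e-05). KIF11, a spindle motor, had 7.69, 7.89 and 6.94 TPM in papilla, against 16.04, 14.7 and 17.8 TPM in sheath (log2 fold change -1.01 ± 0.11, adjusted p = 4.22e-05). The 2 higher genes were cyclins of the first gap phase: CCND2 had 51.9, 60.8 and 61.9 TPM in papilla, against 23.1, 27.02 and 28.4 TPM in sheath (log2 fold change 1.13 ± 0.11, adjusted p = 2.16e-05) and CCNE1 had 30.02, 32.7 and 31.2 TPM in papilla, against 9.95, 17.2 and 18.8 TPM in sheath (log2 fold change 1.03 ± 0.18, adjusted p = 0.00106). PCNA, a clamp of DNA replication, averaged 156 TPM in papilla and 147 TPM in sheath and was not called (adjusted p = 0.439). The keratinocyte and leukocyte lists moved in the same direction as these genes, and their part was not tested.

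All 60 of 60 ribosomal protein genes tested were lower in papilla, with a median of -0.47 and no fold change reaching 2-fold except that of RPL35 (log2 fold change -1.13 ± 0.31, adjusted p = 0.0143). RPL35 was not called without papilla replicate 1 or 3 or without sheath replicate 2 or 3, with adjusted p between 0.0523 and 0.0552. With quantile normalization 46 were called lower and none higher. RPL37 had 904, 877 and 775 TPM in papilla, against 1619.98, 1404 and 1289 TPM in sheath (log2 fold change -0.75 ± 0.08, adjusted p = 4.34e-05). Glycolysis genes had 6 higher and 1 lower of 19. The regulatory kinase PDK4 was the lower one, with 2.63, 3.93 and 4.32 TPM in papilla, against 14.2, 17.7 and 17.9 TPM in sheath (log2 fold change -1.94 ± 0.27, adjusted p = 0.000204). Nuclear genes of oxidative phosphorylation had 13 higher and 1 lower of 50. The number higher was 8 without papilla replicate 1 or 2 and 7 without sheath replicate 1.

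Levels were also available in the pulp, the mesenchyme inside the growing feather. Over the 782 genes at least 2-fold higher in papilla, the median level was 24.03 TPM in papilla and 6.84 TPM in sheath, with 16.3 TPM in the peripheral and 15.3 TPM in the central pulp. Over the 892 genes at least 2-fold lower, it was 2.91 TPM in papilla and 15.3 TPM in sheath, with 6.87 TPM in the peripheral and 4.92 TPM in the central pulp. The papilla and sheath medians differ because the genes were chosen for that difference. Over all genes tested, the medians were 23.6 TPM in papilla, 23.0 TPM in sheath, 25.8 TPM in peripheral and 24.1 TPM in central pulp, above both sets in pulp. The apical dermal papilla of resting follicles is in another table that the authors normalized separately. Its medians were 12.8 and 3.03 TPM for the higher and the lower set, and 24.8 TPM for all tested genes found there. Its levels were therefore not tested against the others.

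Single genes took different courses. PENK averaged 10839.6 TPM in peripheral pulp, 21827 TPM in central pulp and, in the resting apical papilla, 9968 TPM, beside 4854 TPM in the growing papilla. PTN averaged 462, 1718 and 42.4 TPM in the same 3 groups. TFAP2C averaged 346 and 246 TPM in peripheral and central pulp, beside 30.6 TPM in papilla. In the 4 groups of the one table the sheath had the lowest mean of PENK, PTN and TFAP2C, and the pulp values were not tested against papilla or sheath.

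A second set had its highest mean of those 4 groups in the papilla. WFIKKN2 was at 0.129 TPM in peripheral pulp, 0.269 TPM in central pulp and, in the resting apical papilla, 0.0297 TPM, so that the sheath, at 196 TPM, was the other group of the table with more than 1 TPM. HNMT and SHISAL1 were also under 1 TPM in both pulp groups and in the resting apical papilla. CRYBB2 reached 1.12 TPM there. NOG2, by contrast, averaged 204 TPM in the resting apical papilla and 305 TPM in the growing one, and PRLHR2 427 and 86.4 TPM. Smooth muscle genes summed to 1970.1 to 1999.6 TPM in the resting apical papilla and to 1833 to 2288 TPM in peripheral pulp, beside 44938 to 49286 TPM in papilla and 25363 to 31886 TPM in sheath.

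**Figure D5:**
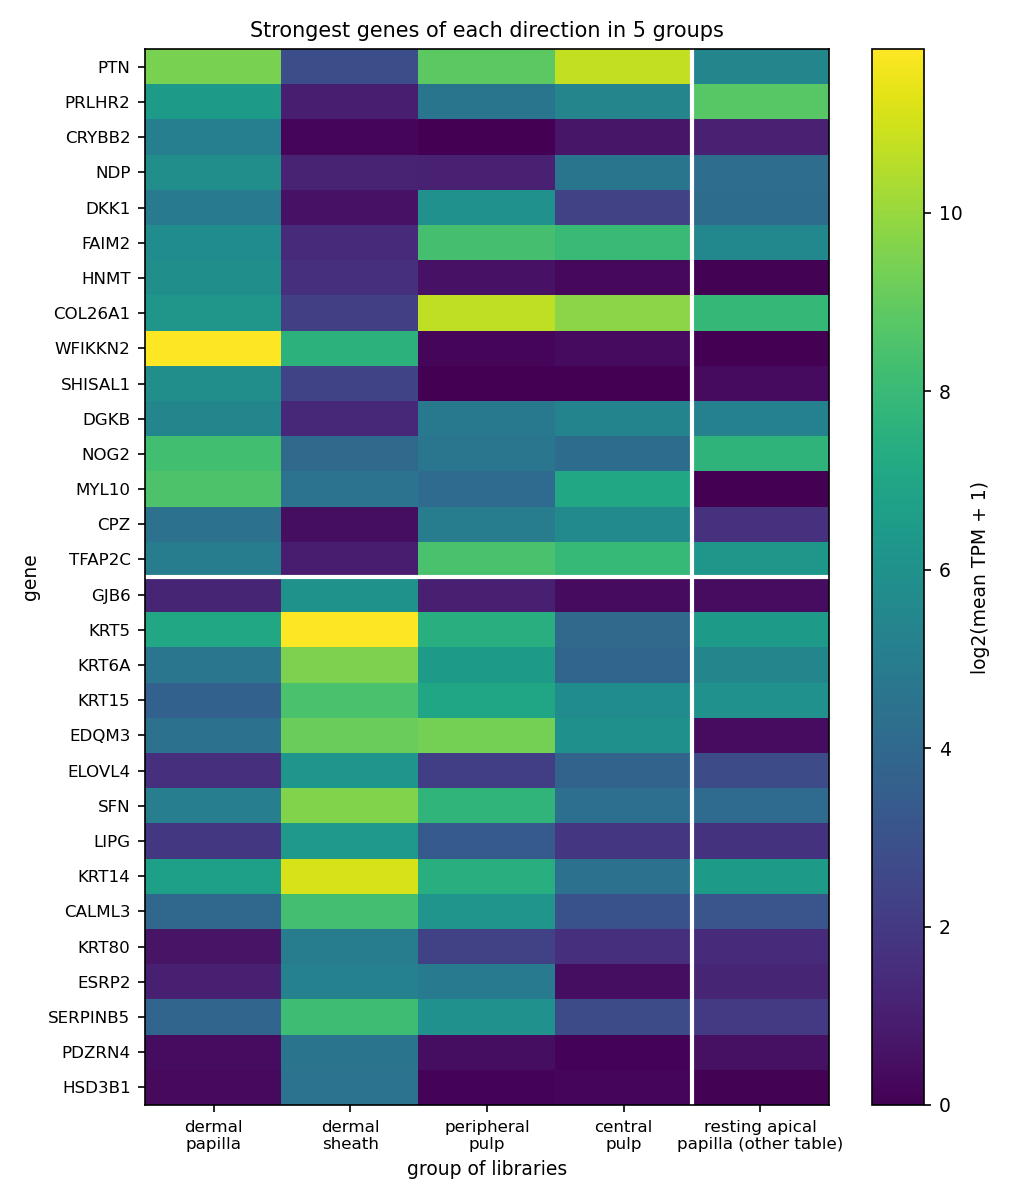
Log2 of the group mean TPM + 1 (colour) of the 15 strongest papilla genes (upper block) and the 15 strongest sheath genes (lower block) in papilla, sheath, peripheral pulp, central pulp and, from the other table, the resting apical papilla. Both blocks hold only called genes with a symbol, a mean of at least 10 TPM in the higher group and no overlap. Genes at 0 in every library of papilla or of sheath are left out. PTN, FAIM2 and COL26A1 are bright in pulp, unlike WFIKKN2, HNMT and SHISAL1, which are near 0 in pulp.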

How the data were processed

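RNA-seq values of 6 libraries, 3 of dermal papilla and 3 of dermal sheath, were analysed as TPM, the unit the authors deposited. RNA was extracted with TRIzol and libraries were made with the TruSeq RNA Prep Kit v2, per the labels' protocols. This kit keeps no strand, so reads of overlapping or antisense genes cannot be told apart. Per the submitters' processing notes the tools included Cuffdiff 2.2.1.3, Cufflinks 2.2.1.2 and TopHat2 2.1.1, without a stated role. Which genome build and annotation served is not given in the sources used here. TPM keep no depth, so no counting error can be given.

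Fold changes are of log2(TPM + 1), with a pseudocount that makes changes of low genes come out too small. The test was that of limma 3.58.1, run in R 4.3.3 (group means, trend and robust variance moderation). The fit used all 12 libraries of the table, so a gene that varies in pulp has a larger error here (8 residual degrees of freedom). Tests were two-sided, with Benjamini-Hochberg adjustment over 13030 genes and a threshold of 0.05. The 785 genes under the filter were not tested. A gene under 1 TPM in every library of 1 group passed through the other group alone, so the filter set its direction. The fit was tested on simulated data. The comparison and the 47 gene lists were chosen with earlier results of these data known. Of 1415 list entries, 1025 had a match among the authors' gene names, and 981 were tested. MKI67, SOX2 and PECAM1 are among the entries without a match, and the level of such entries is unknown. The lists are described by counts and medians, with no set test. Results for some genes are not reported here. The rule for named genes took, among genes with a symbol, the 15 largest and 15 smallest log2 fold changes at 10 TPM or more without overlap, the 10 smallest outside the epidermal lists, the 8 largest TPM differences in each direction, up to 5 members of each list with the smallest p, and genes at 0 on one side. Other genes were named after their values were seen. Alternatives covered the pseudocount, filter, scaling, variance moderation, libraries in the fit, a replicate block and each library left out. The replicate numbers were not taken as pairs. Actins, keratins, globins and other families can share reads.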

Additional observations from a re-analysis of the deposited data

How the results depend on the processing

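No count of called genes over all genes moved by more than 1.5 times under any alternative run. With 1 library left out, 4189 to 4458 genes were called, 2329 to 2780 higher and 1678 to 1924 lower, against 5207, 3002 and 2205 with all. Median-of-ratios scaling gave 5052 calls, 2528 higher and 2524 lower, a split nearer to even than in the fit reported, and shifted the median of all genes by -0.06. Quantile normalization gave 5012 calls, 2697 higher and 2315 lower. Same-numbered papilla and sheath libraries deviated together with correlations of 0.07, 0.06 and -0.08, so the numbers were not read as pairs, and the replicate block gave 5272 calls, 5013 of them shared with the fit without it. Of 286 called genes followed singly, 20 lost the call under some alternative and 0 reversed, counting only alternatives in which the gene passed the filter. Some of them fell under the filter with 1 library left out or with the filter of 5 TPM, and were not tested there. Counts and medians of lists in those runs likewise cover only the members still tested. Of genes not called, DES (-0.01 in the fit reported) reversed to 0.13 with quantile normalization and lay between -0.11 and 0.13 with 1 library left out. COL1A1 (0.05) was -0.012 with median-of-ratios scaling and between -0.046 and 0.23 with 1 library left out. ADIPOQ was 0.14 and PCNA -0.022 with quantile normalization, against -0.11 and 0.09. COL1A2 was called, lower, with the filter of 5 TPM (adjusted p = 0.0477), median-of-ratios scaling (0.0175), the fit on 6 libraries (0.0415) and the block (0.0313). FGF10 was not called with a pseudocount of 0.1 (0.118), nor RPL35 in the fit on 6 libraries (0.0875), nor TAGLN with the block (0.055). CSRP1 was not called with the block (0.0621), median-of-ratios scaling (0.0637) or without trend and robust moderation (0.0574), nor ACTG2 with a pseudocount of 0.1 (0.0585). ACTA1 was called higher with quantile normalization (0.0214) and in the fit on 6 libraries (0.00586). In the fit on 6 libraries the counts higher were 7 for Notch genes, 6 for insulin-like growth factor genes and 5 for TGF-beta genes. Oxidative phosphorylation genes had 7 higher with median-of-ratios scaling and chaperones 7 with either scaling. The medians of the collagen processing, TGF-beta, Notch, and Wnt ligand and receptor lists changed sign under another scaling, all within 0.1 of 0. With the filter of 5 TPM the median was 0.36 for R-spondins and Wnt targets, 1.03 for BMP ligands and receptors, 1.07 for hedgehog genes and -0.23 for leucine-rich proteoglycans. The cause of these changes was not tested. The 3 libraries a group and the unknown depth limit what small differences can be seen.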

Other observations

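Gene groups without a place in the account above are given here, to be read against 23.0% higher and 16.9% lower over all genes tested. Ion channels had 12 of 30 higher and 8 lower in papilla, with 2 T-type calcium channels among the higher ones. CACNA1H had 47.5, 41.1 and 52.2 TPM in papilla, against 6.87, 9.15 and 8.53 TPM in sheath (log2 fold change 2.38 ± 0.20, adjusted p = 5.85e-06). CACNA1G had 25.8, 11.5 and 21.5 TPM in papilla, against 1.54, 1.55 and 2.08 TPM in sheath (log2 fold change 2.86 ± 0.28, adjusted p = 1.66e-05). KCNK3, a background potassium channel, was listed at 0 in all papilla libraries and at 7.87, 5.23 and 5.87 TPM in the sheath libraries. Smooth muscle genes were higher in papilla too, and their part in the calcium channel values was not tested. Axon guidance genes had 9 of 41 higher (22%, near the share over all genes) and 12 lower (29.3%), or 7 lower without sheath replicate 2 or 3. SEMA3E, a secreted semaphorin, had 0.399, 0.306 and 0.245 TPM in papilla, against 17.9, 14.6 and 17.8 TPM in sheath (log2 fold change -3.75 ± 0.28). SEMA3E passed the filter through sheath alone, so its direction is not a result. The ephrin EFNB1 had 232, 195 and 209 TPM in papilla, against 86.8, 76.6 and 83.7 TPM in sheath (log2 fold change 1.35 ± 0.09, adjusted p = 1.67e-06).

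Notch genes had 4 of 17 higher (23.5%) and 2 lower (11.8%), near the shares over all genes, so these counts are no result about the list. The target HEY2 had 48.03, 40.95 and 42.5 TPM in papilla, against 13.4, 8.09 and 13.9 TPM in sheath (log2 fold change 1.84 ± 0.20, adjusted p = 4.14e-05). The ligand DLL1 had 27.3, 25.8 and 29.4 TPM in papilla, against 11.1, 11.2 and 12.1 TPM in sheath (log2 fold change 1.19 ± 0.17, adjusted p = 0.000199). Prostaglandin genes had 1 of 12 higher and 5 lower, or 3 lower without papilla replicate 3. Both cyclooxygenases were lower, with 130.2, 120.4 and 157 TPM in papilla, against 259, 233 and 223 TPM in sheath for PTGS1 (log2 fold change -0.81 ± 0.11, adjusted p = 0.00018) and 11.8, 11.3 and 12.96 TPM in papilla, against 31.2, 29.9 and 32.3 TPM in sheath for PTGS2 (log2 fold change -1.30 ± 0.21, adjusted p = 0.000483). Chaperones had 11 of 24 higher and 1 lower, none at least 2-fold, and 6 higher without papilla replicate 2 or without sheath replicate 1. Immediate-early genes had 3 of 21 higher and 6 lower, with KLF2 at 111, 97.6 and 135 TPM in papilla, against 281, 227 and 239 TPM in sheath (log2 fold change -1.12 ± 0.18, adjusted p = 0.000584), while FOS averaged 88.3 TPM in papilla and 126 TPM in sheath and was not called (adjusted p = 0.614). Of 12 inhibitors of cyclin-dependent kinases and related genes, 1 was higher and 3 lower, or 1 lower without sheath replicate 2 or 3. CDKN2C had 18.6, 15.4 and 15.9 TPM in papilla, against 38.4, 39.6 and 35.7 TPM in sheath (log2 fold change -1.15 ± 0.15, adjusted p = 0.00014).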
